A study of Mus musculus with 6 samples.

Results

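The 8 genes described here are Crhbp, which encodes a binding protein for corticotropin-releasing hormone (CRH), 4 other genes of CRH signalling (Crh, Crhr1, Crhr2 and Ucn) and 3 genes of glucocorticoid response (Nr3c1, Fkbp5 and Tsc22d3). They stand among 19937 genes with a probe set that the platform annotation ties to a single symbol, and each of the 8 has exactly 1 such probe set. Crhbp was chosen by its measured fall in the GFP+FOG1 cells, and the other 7 were chosen from what is known of the 2 pathways, with that result in view. The contrast of Crhbp between the groups is therefore given as a description.

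CRH is a neuropeptide of the hypothalamus that acts on the pituitary through its receptor to raise the adrenal output of glucocorticoids. The secreted binding protein made from Crhbp holds CRH and urocortin away from their receptors. Glucocorticoids enter cells, bind the glucocorticoid receptor made from Nr3c1, and the receptor then switches on genes such as Fkbp5 and Tsc22d3. In lymphocytes this response is known for slowing growth and promoting death, which is why glucocorticoids are used against lymphoid leukaemia. In human blood, CRHBP transcripts are known from haematopoietic stem cells.

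All samples came from 230-238, a mouse B-cell line, and all cells were infected and sorted for green fluorescence. The GFP group (3 arrays) carried a plasmid for green fluorescent protein alone, and the GFP+FOG1 group (3 arrays) a plasmid for GFP together with FOG1, a zinc finger cofactor of GATA transcription factors encoded by Zfpm1. Culture lasted 3 days before the sort and 4 days after it. The labels name biological replicates but not whether the infections were separate, so p-values rest on the spread among these 6 arrays, which may be technical. Both groups are bulk RNA of 1 cell line, so a lower level per cell and fewer cells that express a gene cannot be told apart.

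Values are log2 signals deposited by the authors, 1 for each of 34760 probe sets on an Affymetrix mouse gene array. Zfpm1 read 9.41, 9.49 and 9.43 on the GFP arrays and 10.21, 10.16 and 10.17 on the GFP+FOG1 arrays, so every array went with its label. Of 8 B-lineage markers, 7 were measured, with GFP means of 9.83 to 13.09. All 7 lay above 6.999, the median of all values, and the surrogate light chain genes Vpreb1 and Igll1 were among them. Of the markers of other cell types, 1 of 7 T and NK, 0 of 6 monocyte and macrophage, and 2 of 6 erythroid and megakaryocyte genes reached that median. Of 5 stromal markers, 4 reached it, among them Col1a1 (9.65) and Col1a2 (9.25 on the GFP arrays), and none was called. Their mean signal was 8.11 to 8.30 on the GFP arrays and 8.48, 8.26 and 7.78 on GFP+FOG1 replicates 1, 2 and 3, so the groups overlap and replicates 1 and 3 lie outside the GFP range on opposite sides. The mean signal of the 6 monocyte and macrophage markers was 6.01 to 6.06 in GFP and 5.85 to 5.93 in GFP+FOG1, and that of the B-lineage markers 12.18 to 12.21 and 12.08 to 12.14. The means of these 2 lists separated the groups, with none of their genes called. Of the B-lineage genes, Cd79a stood at -0.41 and Cd79b at -0.16, and the other 5 lay between -0.02 and 0.04. Of the monocyte and macrophage genes, Mpeg1 stood at -0.57 and the other 5 between -0.20 and -0.02. The part of these lists in the results was not tested.

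Crhbp lies on mouse chromosome 13. Since FOG1 acts through GATA factors, the bases before the Crhbp start site are shown, from RefSeq (GRCm38.p6, chr13:95444832-95445081, minus strand, 250 bases ending just before the start site). Capitals mark the only match among the letters searched.

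Crhbp promoter: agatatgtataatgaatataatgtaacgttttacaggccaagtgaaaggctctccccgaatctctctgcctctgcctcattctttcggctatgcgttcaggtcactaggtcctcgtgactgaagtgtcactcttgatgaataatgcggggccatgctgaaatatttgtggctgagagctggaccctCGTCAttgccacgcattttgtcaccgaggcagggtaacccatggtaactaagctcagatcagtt

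Searches covered both strands. The GATA letters AGATAA or AGATAG or TGATAA or TGATAG were not found in this window, and they occur in 26.5% of the 32851 windows of the same length. The half-site of the glucocorticoid response element, AGAACA, was not found either, and it occurs in 16.1% of windows. The cyclic AMP half-site TGACG was found once, as its reverse complement beginning 64 bases before the start site (17.8% of windows hold it). The full cyclic AMP element TGACGTCA, which contains that half-site, was not found (1.55% of windows). These are matches of letters in a short window, and binding was not measured. Promoter windows were used for 6 of the 8 genes. The Ucn window held GATA letters at 2 positions, AGAACA once and the full cyclic AMP element once. Of the 3 Tsc22d3 windows, 1 held AGAACA once and another TGACG once. The windows of Crhr1, Crhr2 and Fkbp5 held none of these letters.

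Crhbp had a strong signal on these arrays and was lower with FOG1. Its log2 signal was 10.80, 10.89 and 10.85 on the 3 GFP arrays and 10.07, 10.13 and 10.11 on the 3 GFP+FOG1 arrays. All GFP+FOG1 arrays lay below all GFP arrays, with a gap of 0.67 between the groups and at most 0.09 between arrays of 1 group. The group means were 10.85 ± 0.05 and 10.10 ± 0.03 (SD, n = 3 each), a difference of -0.74 (SE 0.047), or 1.67-fold lower. In GFP cells the signal stood at percentile 94.7 of all probe sets. The fall was the 19th largest among probe sets with 1 symbol, of which 28 passed in this direction (limma with Benjamini-Hochberg over all probe sets, adjusted p under 0.05).

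**Figure D1:**
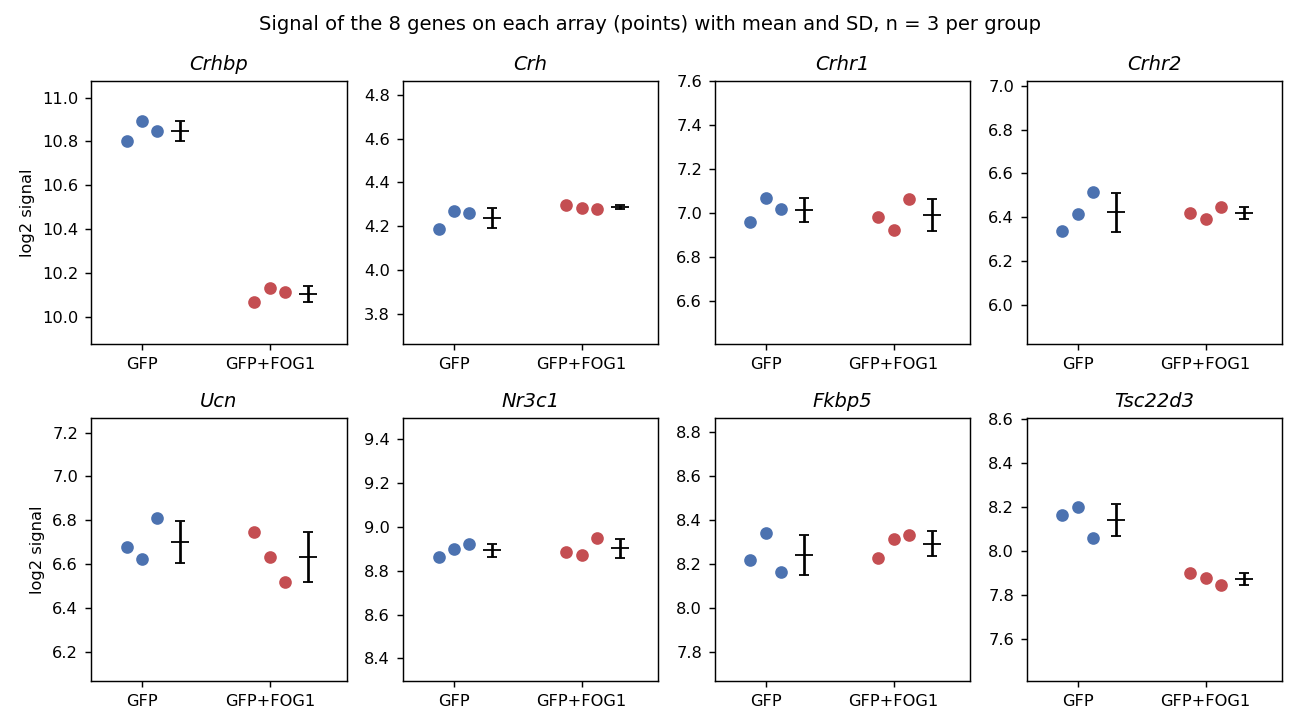
Log2 signal (y axis, a span of 1.2 units in every panel) of the 8 genes on the 3 GFP arrays (blue) and the 3 GFP+FOG1 arrays (red), with the group mean and SD in black. Crhbp shows the widest separation, with 10.80 to 10.89 against 10.07 to 10.13, Tsc22d3 a smaller one, and the other 6 genes have groups that overlap or, for Crh, nearly touch.

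The ligands that Crhbp binds gave weak signals. Crh, the gene of CRH itself, read 4.19, 4.27 and 4.26 on the GFP arrays and 4.30, 4.29 and 4.28 on the GFP+FOG1 arrays. The groups do not overlap, but they are separated by less than the spread of the GFP arrays, and the signal stood at percentile 5.46 of all probe sets. Its difference was 0.05 (95% interval -0.06 to 0.15). Ucn, the gene of urocortin, a ligand of both receptors, read 6.68, 6.62 and 6.81 with GFP and 6.75, 6.63 and 6.52 with GFP+FOG1. The Ucn groups overlap, with a difference of -0.07 (95% interval -0.26 to 0.12).

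The receptors did not separate the groups. Crhr1, the receptor through which CRH acts on the pituitary, read 6.96, 7.07 and 7.02 with GFP and 6.98, 6.92 and 7.06 with GFP+FOG1. The difference was -0.02 (95% interval -0.16 to 0.11), around the median of all values. Crhr2, the receptor preferred by urocortins, read 6.34, 6.41 and 6.52 with GFP and 6.42, 6.39 and 6.45 with GFP+FOG1, with a difference of -0.003 (95% interval -0.14 to 0.14). GFP means of 5 hormone and secretory genes of the pituitary and endocrine cells, among them prolactin (Prl) and growth hormone (Gh), ran from 4.81 to 7.02. The ligand and receptor signals, 4.24 to 7.01, covered a like range. Probe sets differ in brightness and no detection call was used, so these signals do not show whether the transcripts were present.

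The glucocorticoid receptor gene Nr3c1 was well above the median and differed by less than the spread between arrays. It read 8.86, 8.90 and 8.92 with GFP and 8.89, 8.87 and 8.95 with GFP+FOG1. The difference was 0.01 (SE 0.046, 95% interval -0.10 to 0.12), and the interval runs from 0.933-fold to 1.09-fold. A difference as large as that of Crhbp lies outside this interval.

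Of the 2 receptor targets, 1 separated the groups. Fkbp5 encodes a chaperone partner that lowers the receptor's affinity for hormone and is itself induced by it. It read 8.22, 8.34 and 8.16 with GFP and 8.23, 8.31 and 8.33 with GFP+FOG1. These groups overlap, with a difference of 0.05 (95% interval -0.10 to 0.20). Tsc22d3 encodes GILZ, a leucine zipper protein through which glucocorticoids restrain lymphocyte signalling. It read 8.16, 8.20 and 8.06 with GFP and 7.90, 7.88 and 7.84 with GFP+FOG1. All GFP+FOG1 arrays lay below all GFP arrays, with means of 7.87 ± 0.03 and 8.14 ± 0.07 (SD, n = 3 each). The difference was -0.27 (SE 0.053, 95% interval -0.40 to -0.14), or 1.20-fold lower, and it did not pass the threshold over all probe sets. The difference between Fkbp5 and Tsc22d3 was not itself tested.

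Of the 8 genes, 1 was called, Crhbp, against a background of 0.224% of all probe sets called in either direction and 0.121% called lower. Since Crhbp was taken up because it was called, nothing is read from that count. The groups did not overlap for 3 of the 8, Crhbp, Crh and Tsc22d3, against 19.6% of all probe sets. SDs within a group ran from 0.009 (Crh, GFP+FOG1) to 0.11 (Ucn, GFP+FOG1). With 1 probe set per gene, transcript variants such as those of Nr3c1, Crhr1 and Tsc22d3 were not resolved.

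**Figure D2:**
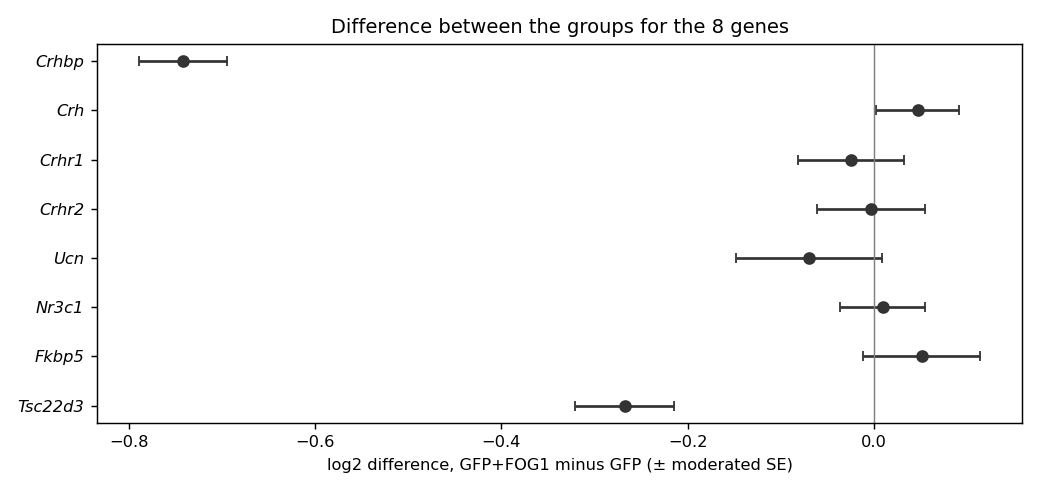
Log2 difference between the groups (x axis, GFP+FOG1 minus GFP) for the 8 genes, with bars of 1 moderated SE. Crhbp stands at -0.74 and Tsc22d3 at -0.27, while the other 6 genes lie between -0.07 and 0.05.

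Further genes of the CRH pathway were read from 2 lists. Of 12 genes around the CRH system (other urocortins, the CRH target gene Pomc and neighbouring peptides and receptors), 0 were called, against 0.224% of all probe sets. An unadjusted p under 0.05 (limma) was found for 2 of the 12, against 12.5% of all probe sets. Their median log2 difference was 0.01, against -0.01 over all probe sets, and 2 of the 12 reached the median signal. Pomc, which encodes the precursor of ACTH, had a difference of -0.18 (SE 0.062; limma adjusted p = 0.34), and its groups did not overlap. Ucn2, a urocortin that acts on Crhr2, had a difference of 0.17 (SE 0.063; limma adjusted p = 0.37), with the groups overlapping. The vasopressin receptor gene Avpr1b stood at -0.13 and the VIP receptor gene Vipr2 at -0.10 (limma adjusted p = 0.46 and 0.47). With Pomc, these were the 3 of the 12 genes whose groups did not overlap, against 19.6% of all probe sets.

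CRH receptors signal through cyclic AMP, and 18 of 20 listed genes of that route were measured. None was called, and 0 had an unadjusted p under 0.05 (limma), against 0.224% and 12.5% of all probe sets. Here 17 of the 18 reached the median signal, and the median difference was -0.01. The groups did not overlap for 1 of the 18, against 19.6% of all probe sets. The smallest p values belonged to the phosphodiesterase genes Pde4d (-0.12) and Pde4a (-0.12), the adenylyl cyclase gene Adcy7 (-0.12) and Pde4b (-0.07), with limma adjusted p between 0.46 and 0.58.

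The genes that hold and assist the glucocorticoid receptor were measured for 21 of 24 list entries, and 0 were called, with 1 at an unadjusted p under 0.05 (limma), against 0.224% and 12.5% of all probe sets. Their median difference was 0.04, and 13 of 21 were positive, against 46.2% of all probe sets. The groups did not overlap for 7 of the 21, against 19.6% of all probe sets. Hsd11b1, whose enzyme regenerates active glucocorticoid, stood at -0.15 (SE 0.058; limma adjusted p = 0.38). The cochaperone genes Fkbp4 (0.15), Cdc37 (0.10) and Dnajb1 (0.10) had limma adjusted p of 0.41 to 0.43. The receptor's main chaperone gene Hsp90aa1, added to these after its values were seen, had 11.93 in both groups. Nr3c2, the mineralocorticoid receptor gene on the same list, was likewise not among the 4 genes of smallest p. It had a weak signal of 4.99 ± 0.11 on the GFP arrays and a difference of 0.02.

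Of 30 genes that glucocorticoids induce in various tissues, 0 were called and 3 had an unadjusted p under 0.05 (limma), against 0.224% and 12.5% of all probe sets. A negative difference was found for 24. The median was -0.07, against -0.01 over all probe sets, of which 53.8% were negative. Pik3ip1, an inhibitor of PI3 kinase, read 9.18, 9.25 and 9.11 with GFP and 8.96, 8.85 and 8.91 with GFP+FOG1 (difference -0.27, SE 0.056; limma adjusted p = 0.18). Irs2, an insulin receptor substrate, read 9.23, 9.13 and 9.08 with GFP and 8.96, 8.80 and 8.77 with GFP+FOG1 (difference -0.30, SE 0.071; limma adjusted p = 0.22). Il7r, the interleukin 7 receptor gene, went the other way, with 11.17, 11.09 and 11.13 against 11.29, 11.35 and 11.36 (difference 0.20, SE 0.046; limma adjusted p = 0.21). The groups did not overlap for these 3 genes or for Rgs2, named for this reason, which was higher with GFP+FOG1 (difference 0.08). That makes 4 of the 30, against 19.6% of all probe sets, and none passed over all probe sets. The metallothionein gene Mt2 stood at -0.27 (SE 0.13; limma adjusted p = 0.45) with overlapping groups.

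The arrays of the GFP+FOG1 group were uneven on this list. The mean signal of the 30 genes was 8.91 on GFP+FOG1 replicate 1, 8.79 on replicate 2 and 8.72 on replicate 3, against 8.86, 8.93 and 8.89 on the GFP arrays. GFP+FOG1 replicate 1 thus lay within the range of the GFP arrays, and the other 2 below it. Single genes were picked here after their values were seen. Within this group, replicate 1 was highest and replicate 3 lowest for the classical targets Sgk1 and Dusp1. The reverse held for Klf9 (8.80, 8.81 and 8.82) and Zbtb16 (6.89, 7.01 and 7.10 on replicates 1, 2 and 3). These pairs do not stand for an even split, since more of the 30 genes fell in order from replicate 1 to 3 than rose. Anxa1, with the lowest difference on the list (-0.41), read 10.17, 9.59 and 8.88, and Errfi1 10.30, 9.91 and 9.13. The kinase gene Sgk1 read 8.77, 8.26 and 8.06 on GFP+FOG1 replicates 1, 2 and 3, and the phosphatase gene Dusp1 11.42, 10.97 and 10.85. Of the 5 stromal markers, 4 were likewise highest on replicate 1 and lowest on replicate 3 within this group, and Dcn was not. The receptor gene Pdgfrb read 8.97, 8.59 and 7.59, and the collagen genes Col1a1 9.90, 9.61 and 8.99 and Col1a2 9.55, 9.21 and 8.71 on these 3 arrays. The part of stromal RNA in the list's values was not tested. Without replicate 3 the list had 20 negative genes and a median of -0.04, without replicate 2 it had 20 and -0.05, and without replicate 1 it had 25 and -0.10. Without GFP replicate 2 it had 24 and -0.04. Median centring gave 21 negative genes and a median of -0.04, where all probe sets had 0.02. Crhbp did not show this unevenness, since GFP+FOG1 replicate 1 was its lowest array.

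**Figure D3:**
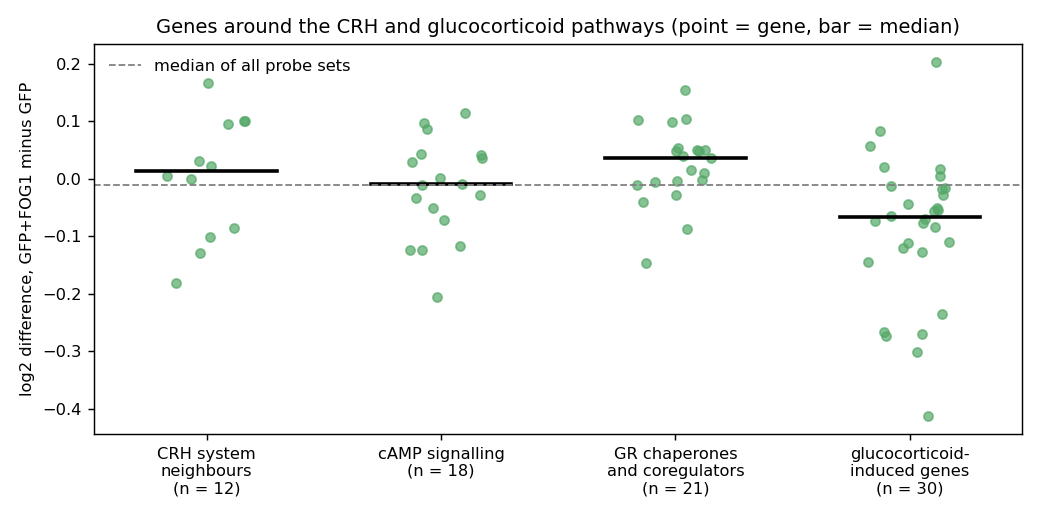
Log2 difference (y axis, GFP+FOG1 minus GFP) of each measured gene on the 4 lists, with the list median as a black bar and the median of all probe sets as a dashed line. The glucocorticoid-induced genes have the lowest median, -0.07, with 24 of 30 below 0, and the other medians lie between -0.01 and 0.04.

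Position on the chromosome played no part in choosing Crhbp. Its 5 nearest measured genes on each side, in the RefSeq gene order of GRCm38.p6, were Otp, Wdr41, Pde8b, Zbed3 and Aggf1 on one side and S100z, F2r, Iqgap2, F2rl2 and Sv2c on the other. None of these 10 was called, and 1 had an unadjusted p under 0.05 (limma), against 0.224% and 12.5% of all probe sets. The adjacent genes Aggf1, an angiogenic factor gene, and S100z, of the S100 calcium-binding family, stood at -0.01 (SE 0.063) and -0.10 (SE 0.051). Iqgap2, a scaffold of the cytoskeleton, read 8.32, 8.26 and 8.35 with GFP and 8.55, 8.60 and 8.72 with GFP+FOG1. Its groups do not overlap and lie in the opposite direction to Crhbp (difference 0.32, SE 0.058; limma adjusted p = 0.15). The S100z groups do not overlap either, and lie in the same direction as Crhbp (limma adjusted p = 0.46). Groups without overlap were found for 19.6% of all probe sets. F2r, the thrombin receptor gene, stood at -0.25 (SE 0.21; limma adjusted p = 0.65), with GFP+FOG1 values of 8.35, 7.86 and 7.55 that overlap the GFP values of 7.96, 8.17 and 8.37. The other 6 neighbours lay between -0.07 and 0.06.

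**Figure D4:**
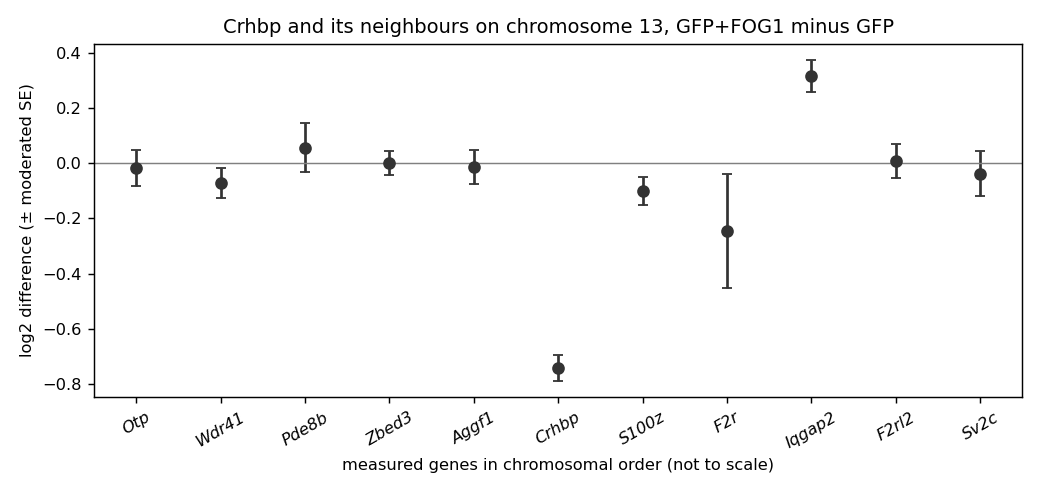
Log2 difference (y axis, GFP+FOG1 minus GFP, bars of 1 moderated SE) of Crhbp and the 5 nearest measured genes on each side, in chromosomal order along the x axis. Crhbp stands at -0.74 between Aggf1 at -0.01 and S100z at -0.10.

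The genes most like Crhbp in pattern were found by Euclidean distance over the 6 arrays, after each probe set was centred on its own mean. The nearest was Zhx2, a zinc finger and homeobox gene, at a distance of 0.15, with 9.77, 9.77 and 9.65 on the GFP arrays and 9.05, 9.04 and 9.02 on the GFP+FOG1 arrays. Next came the predicted gene Gm10384 (0.19), the tyrosine phosphatase gene Ptpn3 at 1 of its 12 probe sets (0.20), the SLAM family receptor gene Cd244a (0.21) and Tgfb3, a ligand of the TGF-beta family (0.25). Their Pearson correlations with Crhbp ran from 0.97 to 0.99 over the 6 arrays, which mainly reflect the shared step between the groups. By Pearson correlation in place of distance, none of these 5 probe sets was among the first 5, and 1 of the genes, Ptpn3, appeared there at another of its probe sets. On GFP+FOG1 replicate 1 Crhbp was lower than these 5 genes relative to their means, and the Zhx2 value was the closest to it.

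**Figure D5:**
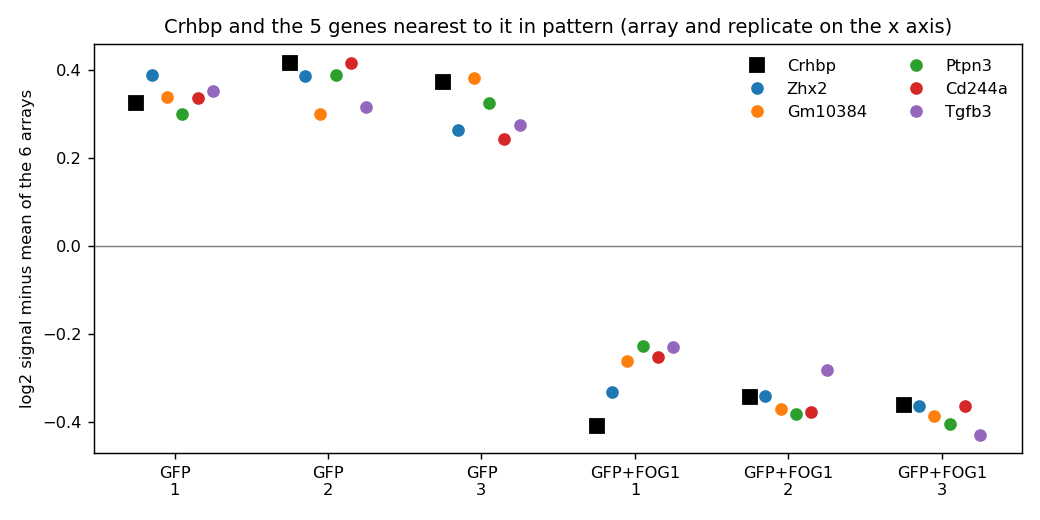
Log2 signal minus the mean of the 6 arrays (y axis) for Crhbp (black squares) and the 5 genes nearest to it in pattern (coloured circles) on each array (x axis). All 6 genes lie above 0 on the GFP arrays and below 0 on the GFP+FOG1 arrays.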

How the data were processed

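RNA of 6 samples, 3 with GFP and 3 with GFP+FOG1, was measured on 1 array each, and the titles gave each sample its group and replicate number. The deposited values are log2 signals per probe set, made by the authors. The affy package is named in the submitters' processing notes, with no version, and how background, normalization and probe summary were handled is not given in the sources used here. That the scale is log2 was judged by the range of the values. Changes are relative to the other probe sets of an array, and a dim signal understates a change. The number of arrays limits the precision.

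The platform annotation named the probe sets (21640 of 34760 with 1 symbol, 1321 with several, 11799 with none). Symbols were checked through Entrez identifiers against RefSeq genes of GRCm38.p6, and 0 changed. No probe set with several symbols included a member. The comparison used limma 3.58.1 (R 4.3.3) over all probe sets, without a filter or block, with Benjamini-Hochberg adjustment and a threshold of 0.05. In a test on simulated data drawn at the observed means and spreads (34760 probe sets, 200 changed, 5 runs), the fit recovered 87.7% of 2-fold changes. Of its calls, 4.26% were unchanged probe sets. Smaller changes were not simulated, so recovery at the size of most differences given here is not known. A list's gene was read at its 1-symbol probe set of highest mean, and a list is described by counts and its median.

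The members, lists, tests and alternatives were chosen with earlier results of these data known. Named were all members, Zfpm1, the 4 genes of smallest p on each list, the chromosomal neighbours and the 5 genes nearest in pattern, with exceptions stated. Promoter sequence came from RefSeq (GRCm38.p6). The promoter of Nr3c1 was not used here, and no promoter entry was available for Crh. Figures were drawn with matplotlib 3.10.9.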

Additional observations from a re-analysis of the deposited data

How the results depend on the processing

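Over 13 alternatives (quantile normalization, median centring, no dim probe sets, only 1-symbol probe sets, the replicate block, a variance trend, array weights and leaving out each of 6 arrays), the Crhbp difference ranged from -0.77 to -0.72 and was called in 12. With the replicate block it kept its size, missed the threshold (limma adjusted p = 0.088), and 9 probe sets in all were called in place of 78. Crhbp was chosen by its fall on these same 6 arrays. Its calls here therefore describe the effect of processing and add no support for the fall. Arrays that share a number had deviations from their group means correlated at -0.07, 0.01 and -0.04, so the numbers were not taken as pairs. Without 1 array, 17 to 38 probe sets were called, with fewer samples by construction. Tsc22d3 stayed between -0.31 and -0.24 and was called in 0 of 13 (limma adjusted p 0.084 to 0.43). Crh, Ucn and Fkbp5 kept their sign in each alternative run, while Crhr1 and Nr3c1 kept theirs in 9 of 13 and Crhr2 in 8 of 12. The list around the CRH system had a median of 0.059 over the 2 genes left without dim probe sets. That filter also removes Crh, Crhr2 and Ucn, so it gave no value for them. The other list medians, and that of the chromosomal neighbours, moved by less than the spread between replicates, but medians this close to 0 changed sign in some settings. A weak signal limits what can be said of the CRH ligands and receptors.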

Other observations

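Related genes were looked up after the results above were known, and are given as values. Gas5, a noncoding RNA known from human cells to bind the DNA-binding domain of the glucocorticoid receptor, has 4 probe sets with 1 symbol, and its log2 differences were 0.56, 0.18, 0.19 and 0.68. At the first of them it read 9.63, 9.44 and 9.55 with GFP and 10.06, 10.15 and 10.09 with GFP+FOG1, and it rose there (limma adjusted p = 0.038). The other 3 did not pass (limma adjusted p = 0.33, 0.28 and 0.23). The groups did not overlap at any of the 4, against 19.6% of all probe sets. These 4 read 1 gene on the same 6 arrays, so they are not independent.

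For the relatives of Tsc22d3 given here, the groups overlapped. Tsc22d2 stood at -0.04 (SE 0.049) and Tsc22d4 at -0.02 (SE 0.044), both with overlapping groups. Tsc22d1, a gene of the same family, read 9.21, 8.82 and 8.29 on GFP+FOG1 replicates 1, 2 and 3 and 8.95, 9.17 and 9.21 on the GFP arrays (difference -0.34, SE 0.22; limma adjusted p = 0.56). The 95% interval of Tsc22d1, -0.87 to 0.19, includes the Tsc22d3 difference of -0.27, so its overlap does not show a smaller change. Within GFP+FOG1 it was highest on replicate 1 and lowest on replicate 3, as were most of the stromal markers. The part of stromal RNA in its values was not tested. The differences between these genes and Tsc22d3 were not tested.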
